A study of Mus musculus with 29 samples.

Results

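Polycomb repressive complex 2 (PRC2) is described here through 7 of its genes, Ezh1, Ezh2, Eed, Suz12, Jarid2, Mtf2 and Phf19, taken by symbol from the 48709 gene identifiers of the RNA-seq count files. For each gene the RNA level in every library and the H3K9ac peaks within 1 kb of either end of the gene were read out. All 7 genes had enough counts to enter the test over 20078 genes. The material was mouse cortex at E16.5 (embryonic day), given the histone deacetylase inhibitor trichostatin A (TSA) or its vehicle, with nuclei then sorted on Tbr2, the transcription factor encoded by Eomes that marks basal (intermediate) progenitors. The RNA groups were Tbr2+ with TSA (2 libraries), Tbr2+ with vehicle (3), Tbr2- with TSA (2) and Tbr2- with vehicle (3). The H3K9ac groups held 4 libraries of Tbr2+ with TSA, 3 of Tbr2+ with vehicle, 4 of Tbr2- with TSA and 4 of Tbr2- with vehicle. The labels give no strain, dose, duration or mutant allele, and their genotype field holds only the sort fraction. No label says that libraries are separate animals, so every p-value measures the spread between these libraries. The Tbr2- fraction is whatever the sort left, a mixture of cell types, and in such bulk samples fewer cells of a type and less RNA per cell cannot be told apart.

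PRC2 writes methylation on lysine 27 of histone H3, and its trimethylated product H3K27me3 marks genes held silent. Ezh2 and Ezh1 are the alternative catalytic subunits, Eed binds the H3K27me3 already laid down and stimulates the enzyme, and Suz12 is the scaffold on which the complex assembles. Jarid2 belongs to the PRC2.2 form, while the Polycomb-like proteins Mtf2 and Phf19 belong to PRC2.1 and bind CpG-rich DNA and methylated H3K36. In the developing cortex Ezh2 is known as the enzyme of dividing progenitors and Ezh1 as the one that persists in postmitotic cells. H3K9ac is an acetylation mark of active gene starts, which deacetylases remove and TSA therefore preserves.

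Ezh2, an E2F target in textbooks, differed between the sorted fractions while Ezh1 did not pass. For this reason, and because the H3K9ac peaks described further on lie over or near them, the sequences at the starts of Ezh2 and Ezh1 are shown, with that of Suz12. They are RefSeq sequences of build GRCm38.p6, read 5′ to 3′ on the strand of the gene, and cover the 250 bases before an annotated start. Capitals mark E2F words (TTTCCCGC, TTTCGCGC, TTTGCCGC or TTTGGCGC, either strand) and CCAAT boxes (either strand), and the words were chosen after the sequences had been seen. The printed set does not follow the test between fractions. Suz12, which holds an E2F word, did not pass, while Eed and Jarid2 passed, hold no E2F word and are not printed. The Ezh2 sequence lies at chr6:47595031-47595280 on the minus strand, that of Ezh1 at chr11:101226464-101226713 on the minus strand and that of Suz12 at chr11:79992856-79993105 on the plus strand.
Ezh2: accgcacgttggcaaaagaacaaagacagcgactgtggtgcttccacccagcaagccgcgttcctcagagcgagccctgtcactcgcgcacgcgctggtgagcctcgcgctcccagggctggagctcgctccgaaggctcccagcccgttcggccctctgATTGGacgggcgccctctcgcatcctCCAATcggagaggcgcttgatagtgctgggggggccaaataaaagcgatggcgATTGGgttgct
Ezh1: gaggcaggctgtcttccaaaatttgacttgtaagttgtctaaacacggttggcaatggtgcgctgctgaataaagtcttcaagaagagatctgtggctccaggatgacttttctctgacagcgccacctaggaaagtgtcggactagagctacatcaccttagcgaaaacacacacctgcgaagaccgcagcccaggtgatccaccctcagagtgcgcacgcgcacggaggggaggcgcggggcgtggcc
Suz12: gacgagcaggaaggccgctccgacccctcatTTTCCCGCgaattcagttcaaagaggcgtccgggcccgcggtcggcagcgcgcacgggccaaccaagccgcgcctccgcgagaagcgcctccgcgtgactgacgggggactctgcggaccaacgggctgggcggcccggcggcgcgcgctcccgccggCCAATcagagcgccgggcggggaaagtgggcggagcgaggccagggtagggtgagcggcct

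The Ezh2 stretch held 3 CCAAT boxes and the Suz12 stretch 1 CCAAT box and 1 E2F word, while the Ezh1 stretch held neither motif. The E2F words of 3 genes are given with their flanks in 30 bases each. The Ezh2 word began 4 bases into the transcript, at chr6:47595009-47595038 (minus strand). The Suz12 word began 219 bases before the start, at chr11:79992876-79992905 (plus strand). The Phf19 word began 208 bases before the start on the opposite strand, at chr2:34914166-34914195 (minus strand).
Ezh2 word: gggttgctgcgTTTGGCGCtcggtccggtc
Suz12 word: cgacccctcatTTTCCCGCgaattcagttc
Phf19 word: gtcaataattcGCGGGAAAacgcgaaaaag

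RefSeq gave 9 promoters for the 7 genes, with 2 starts each for Jarid2 and Mtf2. Over the 300 bases that also include the first 50 of the transcript, an E2F word stood in 3 of the 9 and in 2.26% of all 32851 promoters of the table. A CCAAT box stood in 6 of the 9 and in 37.4% of all, and TTTGAA, the core of the CHR element of G2/M genes, in 3 of the 9 and in 17.9% of all. TCACACC, the core of a T-box element, was in none of the 9 and in 3.98% of all. Many of these starts were rich in CpG, the dinucleotide that Polycomb-like proteins bind in unmethylated DNA. Suz12 had 41 CpG in 300 bases, Phf19 38, Ezh2 31, the upstream Mtf2 start 30, the Jarid2 starts 24 and 23, Ezh1 23 and Eed 17, against a median of 7 over the table. The second Mtf2 start had 2. Every E2F word searched holds a CG, so its share over all promoters is not that of starts as rich in CpG as most of these. The words were also chosen after the sequences had been seen, so the shares are no test. A match is a description of the letters and not a bound site.

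Between the sorted fractions of vehicle cortex, the catalytic subunit Ezh2, the H3K27me3 reader Eed and the accessory subunit Jarid2 were higher in Tbr2+ nuclei, by 1.66, 1.53 and 1.42 times. Suz12, Mtf2 and Phf19 had positive and Ezh1 a negative fitted difference, and none of these 4 passed the test. Thus 3 of 7 genes were higher and none lower at an adjusted p below 0.05, against 9.96% of the 20078 genes tested that were higher and 11.5% that were lower. The median log2 fold change of the 7 was 0.51, against -0.05 over all genes tested. For Ezh2, Eed, Suz12, Jarid2 and Mtf2, 5 of the 7, every Tbr2+ vehicle library exceeded every Tbr2- vehicle library, as in 18.4% of all genes. Adjusted p-values here and below are from edgeR's quasi-likelihood test with Benjamini-Hochberg adjustment over all genes. CPM is the count of a gene scaled to the TMM-adjusted size of its library and not divided by gene length, so levels are compared between libraries and not between genes.

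Ezh2 (ENSMUSG00000029687, chr6:47530274-47595270) had 242, 219 and 227 CPM in the Tbr2+ vehicle libraries, against 156, 126 and 131 CPM in the Tbr2- vehicle libraries. The lowest positive library stood well above the highest negative one. The log2 fold change was 0.73 ± 0.13 (SE, adjusted p = 0.00146, edgeR). With TSA, Ezh2 had 248 and 248 CPM in Tbr2+ nuclei and 145 and 135 CPM in Tbr2- nuclei, again without overlap. That difference was 0.83 ± 0.16 (adjusted p = 0.00685, edgeR), in libraries not used in the vehicle comparison, though the fit shares its estimate of spread. Without library 2 of Tbr2- with TSA it was 0.80 with an adjusted p of 0.0599 (edgeR). The 5′ end of Ezh2 lies inside F830010H11Rik, an annotated lncRNA, and the library kit does not keep the strand, so reads of the shared bases cannot be assigned to either gene for certain.

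Ezh1 (ENSMUSG00000006920, chr11:101191115-101226463), the paralog of Ezh2, had 45.6, 42.1 and 35 CPM in Tbr2+ vehicle nuclei and 39.8, 39.4 and 57.2 CPM in Tbr2- vehicle nuclei. These groups overlapped, and the 57.2 CPM of Tbr2- library 3 was the highest value of all. The log2 fold change of -0.15 ± 0.20 did not pass (adjusted p = 0.657, edgeR), with a 95% interval of -0.58 to 0.28, and it was 0.06 without that library. With TSA, Ezh1 had 27.2 and 38.5 CPM in Tbr2+ and 41.3 and 42.0 CPM in Tbr2- nuclei, a difference of -0.34 ± 0.25 (adjusted p = 0.451, edgeR).

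The RNA counts of Ezh2 and Ezh1 therefore stood in different proportions in the sorted fractions. The ratio of Ezh2 to Ezh1 counts, which is comparable between libraries but is not corrected for the lengths of the genes, was 9.12 and 6.44 in Tbr2+ nuclei with TSA. It was 5.31, 5.20 and 6.50 in Tbr2+ vehicle nuclei, 3.50 and 3.21 in Tbr2- nuclei with TSA, and 3.93, 3.21 and 2.29 in Tbr2- vehicle nuclei. Each of the 5 Tbr2+ libraries had a higher ratio than each of the 5 Tbr2- libraries, a description for which no test was run. The ratio was added after values had been seen, and no share over other pairs of genes was taken.

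**Figure D1:**
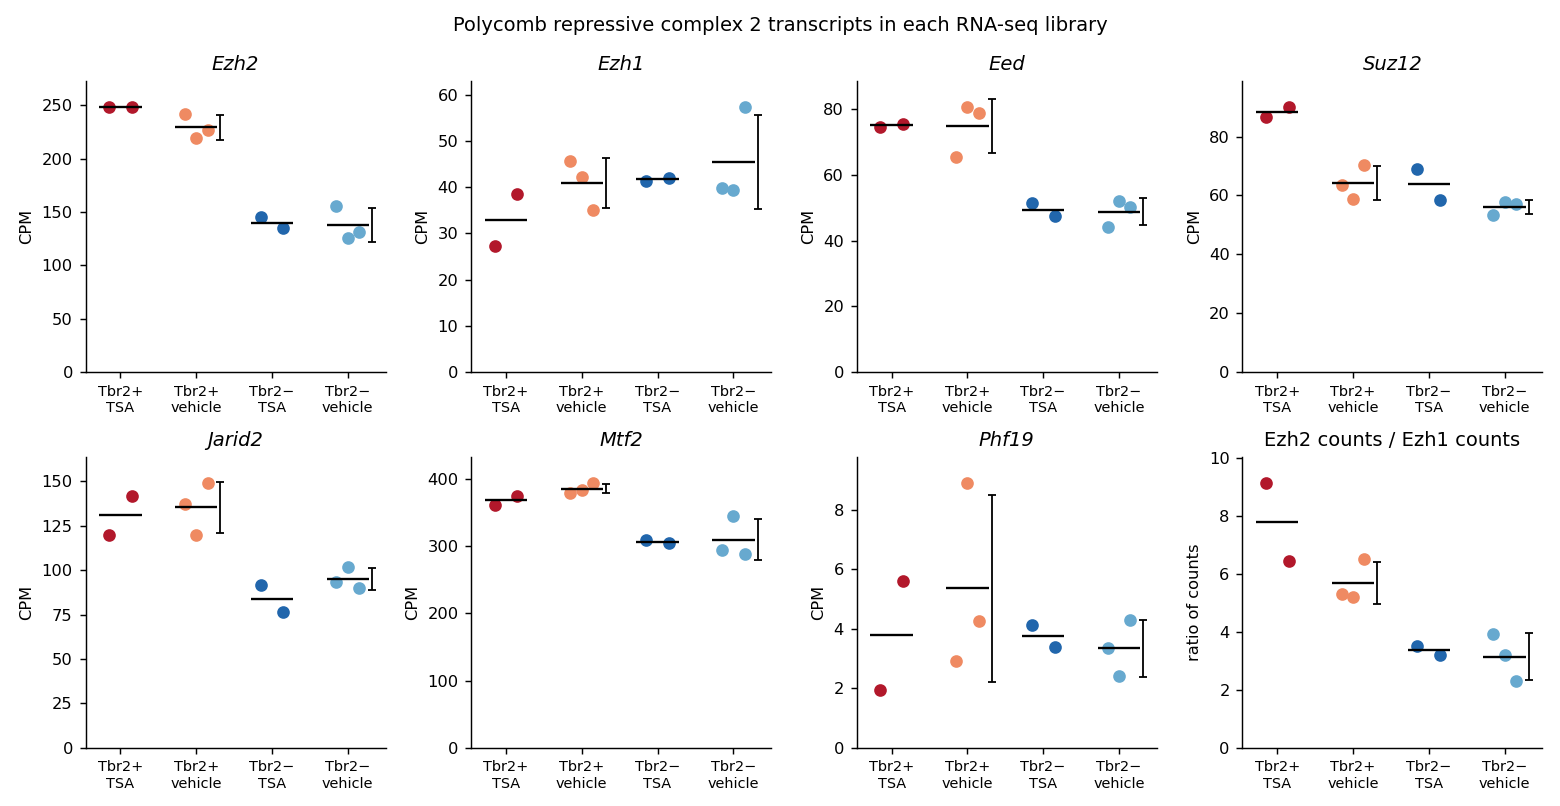
CPM of each PRC2 gene in the 10 RNA libraries, and the ratio of Ezh2 to Ezh1 counts in the last panel. Points are libraries, horizontal lines group means and bars the SD of the groups of 3. Ezh2 lies between 219 and 248 CPM in Tbr2+ libraries and between 126 and 156 CPM in Tbr2- libraries, while the Ezh1 groups overlap in vehicle.

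Of the core partners, Eed (ENSMUSG00000030619, chr7:89954654-89980976) had 65.4, 80.6 and 78.8 CPM in Tbr2+ vehicle nuclei, against 44.2, 52.2 and 50.2 CPM in Tbr2- vehicle nuclei. The groups did not overlap, and the log2 fold change was 0.62 ± 0.14 (adjusted p = 0.00807, edgeR). With TSA the values were 74.6 and 75.7 CPM in Tbr2+ and 51.4 and 47.4 CPM in Tbr2- nuclei, a difference of 0.61 ± 0.18 that lay just under the threshold (adjusted p = 0.0492, edgeR). It did not pass when any of the 4 TSA libraries was left out, with adjusted p-values of 0.117, 0.145, 0.147 and 0.196 (edgeR) and differences of 0.57 to 0.71 on the log2 scale. Nor did it pass with a replicate block (0.0627), in a fit of the 2 groups alone (0.0781) or without the low-count filter (0.0617).

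Suz12 (ENSMUSG00000017548, chr11:79993106-80034123) had 63.5, 58.7 and 70.2 CPM in Tbr2+ vehicle nuclei and 53.5, 57.7 and 57.2 CPM in Tbr2- vehicle nuclei. The groups were apart by a narrow margin, and the log2 fold change of 0.19 ± 0.14 did not pass (adjusted p = 0.370, edgeR). With TSA it had 86.7 and 89.9 CPM in Tbr2+ and 69.0 and 58.5 CPM in Tbr2- nuclei, a difference of 0.47 ± 0.17 that did not pass either (adjusted p = 0.108, edgeR). DESeq2 gave an adjusted p of 0.0380 for it.

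Among the accessory subunits, Jarid2 (ENSMUSG00000038518, chr13:44730774-44921643), which helps bring PRC2 to chromatin, had 137, 120 and 149 CPM in Tbr2+ vehicle nuclei and 93.3, 102 and 90.2 CPM in Tbr2- vehicle nuclei. The groups did not overlap, and the log2 fold change was 0.51 ± 0.14 (adjusted p = 0.0236, edgeR). This call was lost without Tbr2+ vehicle library 1 (adjusted p = 0.0507, edgeR) or 3 (0.0813), and without Tbr2- vehicle library 1 (0.0626) or 3 (0.0805). With TSA, Jarid2 had 120 and 142 CPM in Tbr2+ and 91.5 and 76.2 CPM in Tbr2- nuclei, a difference of 0.65 ± 0.18 (adjusted p = 0.0373, edgeR). It did not pass without Tbr2+ TSA library 2 (0.187), Tbr2- TSA library 1 (0.0813) or Tbr2- TSA library 2 (0.203), nor with a replicate block (0.0587) or in a fit of the 2 groups alone (0.0715).

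Mtf2 (ENSMUSG00000029267, chr5:108065660-108109219) had 380, 384 and 394 CPM in Tbr2+ vehicle nuclei and 295, 345 and 289 CPM in Tbr2- vehicle nuclei. Its libraries varied little within the Tbr2+ group, the groups did not overlap, and the log2 fold change of 0.32 ± 0.13 did not pass (adjusted p = 0.0950, edgeR), whereas DESeq2 gave an adjusted p of 0.0265. With TSA it had 362 and 375 CPM in Tbr2+ and 309 and 305 CPM in Tbr2- nuclei, a difference of 0.26 ± 0.15 (adjusted p = 0.341, edgeR).

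Phf19 (ENSMUSG00000026873, chr2:34893752-34914353) had few counts, with 2.91, 8.90 and 4.27 CPM in Tbr2+ vehicle nuclei and 3.34, 2.40 and 4.31 CPM in Tbr2- vehicle nuclei. These groups overlapped, and the 95% interval of the log2 fold change ran from -0.44 to 1.79 (0.68 ± 0.52, adjusted p = 0.403, edgeR). With TSA it had 1.95 and 5.61 CPM in Tbr2+ and 4.13 and 3.39 CPM in Tbr2- nuclei, a difference of 0.01 ± 0.63 (adjusted p = 1, edgeR). Within each Tbr2+ group the libraries of Phf19 thus differed more from each other than the group means did.

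In the TSA libraries, as in the vehicle libraries, Ezh2, Eed and Jarid2 were the 3 genes of the 7 that passed as higher in Tbr2+ nuclei, against 4.19% of all genes tested. None was lower, against 5.13% of all. For the same 5 of the 7 as in vehicle the Tbr2+ libraries all exceeded the Tbr2- libraries, as in 23.6% of all genes. For Ezh1 they all lay below, as in 27.3% of all genes. The median log2 fold change was 0.47, against -0.02 over all genes tested. Each group has 2 libraries here, and without library 2 of Tbr2- with TSA none of the 7 passed. With a replicate block, or in a fit of the 2 groups alone, Ezh2 was the 1 gene of the 7 that passed. Summed over the 7 genes, RNA amounted to 921 to 974 CPM in Tbr2+ with TSA, 914 to 959 CPM in Tbr2+ with vehicle, 667 to 711 CPM in Tbr2- with TSA and 680 to 726 CPM in Tbr2- with vehicle.

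**Figure D2:**
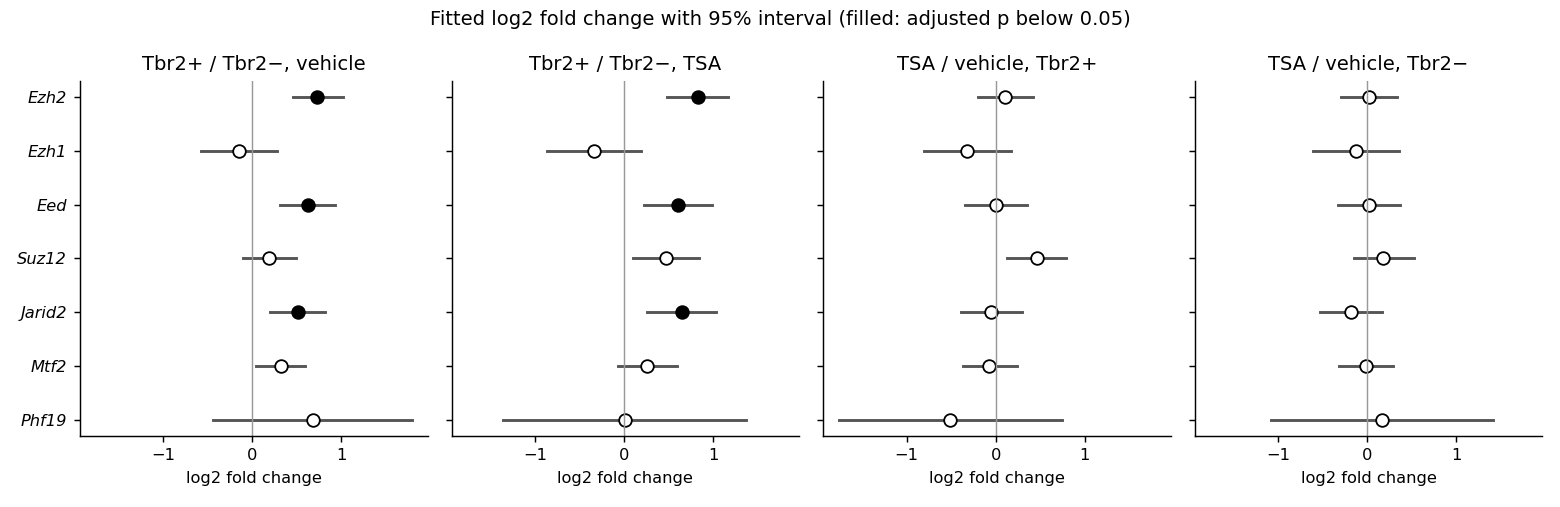
Fitted log2 fold changes of the 7 genes with 95% intervals in the fraction and treatment comparisons. Filled points have an adjusted p below 0.05. Ezh2, Eed and Jarid2 are filled in both comparisons of the fractions, and no gene is filled in either comparison of TSA with vehicle.

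The sort and the cell cycle moved with these differences. Eomes stood at 427 ± 50.3 CPM (SD, n = 2) in Tbr2+ with TSA and 443 ± 93.3 CPM (n = 3) in Tbr2+ with vehicle, against 11.2 ± 4.19 CPM (n = 2) in Tbr2- with TSA and 18 ± 4.04 CPM (n = 3) in Tbr2- with vehicle. All 10 S-phase genes were higher in Tbr2+ vehicle nuclei, among them the helicase subunit Mcm2 (log2 fold change 1.64 ± 0.23, adjusted p = 0.000283, edgeR), and 9 of the 10 G2/M genes, among them the topoisomerase Top2a (1.44 ± 0.19, adjusted p = 0.000191). Summed S-phase RNA was 961 to 1270 CPM in Tbr2+ and 444 to 487 CPM in Tbr2- vehicle nuclei. Summed G2/M RNA was 542 to 822 CPM in Tbr2+ and 199 to 259 CPM in Tbr2- vehicle nuclei. Neuronal RNA ran the other way, with a sum of 4180 to 4910 CPM in Tbr2+ and 6880 to 8260 CPM in Tbr2- vehicle nuclei, and 5 of 8 markers were lower and 1 higher. All 8 interneuron markers were lower, with a sum of 103 to 209 CPM in Tbr2+ and 652 to 756 CPM in Tbr2- vehicle nuclei. Basal progenitor markers were higher for 8 of 8 and radial glia markers for 2 of 8, while 2 of 6 microglia and 4 of 5 oligodendrocyte precursor markers were lower and none of 6 vascular and 4 erythroid markers passed. With TSA against vehicle, 2 of 8 interneuron markers (Dlx5 and Sst) rose in Tbr2- nuclei, and the summed interneuron RNA was 1200 to 1280 CPM with TSA and 652 to 756 CPM with vehicle. The radial glia marker Sox2 also passed there (1.07 ± 0.20, adjusted p = 0.0481, edgeR), as 1 of 8. The summed radial glia RNA was 977 to 1040 CPM with TSA and 776 to 807 CPM with vehicle. In this comparison 1.18% of all genes passed in either direction, and 0.0481 was the smallest adjusted p of any gene (edgeR). The calls over all genes there depended on the libraries kept, as given at the end. No marker of these lists was without counts in any group. Their part in the differences of Ezh2, Eed and Jarid2 was not tested.

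TSA against vehicle left no PRC2 gene past the threshold in either fraction. In Tbr2+ nuclei the 7 log2 fold changes lay between -0.51 (Phf19) and 0.46 (Suz12), and 0 of 7 passed, as did 0% of the 20078 genes (3175 genes or 15.8%, among them 1 of the 7, had an unadjusted p below 0.05 in edgeR, and DESeq2 called 1065 genes and none of the 7). In Tbr2- nuclei they lay between -0.18 (Jarid2) and 0.18 (Suz12), and 0 of 7 passed against 1.18% of all genes (0 of the 7 had an unadjusted p below 0.05 in edgeR, as 20.1% of all genes did, and DESeq2 called none of the 7). Averaged over both fractions 0 of 7 passed, against 10.8% of all genes (1 of the 7 had an unadjusted p below 0.05 in edgeR, as 27.3% of all genes did, and DESeq2 called 1 of the 7). Besides Suz12, described next, groups were apart in Tbr2+ nuclei for Ezh2, higher with TSA (15.9% of all genes), and for Mtf2, lower with TSA (17.6% of all genes).

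Suz12 was the gene with an unadjusted p below 0.05. Its 86.7 and 89.9 CPM in Tbr2+ nuclei with TSA, against 63.5, 58.7 and 70.2 CPM with vehicle, did not overlap, and neither did 69.0 and 58.5 CPM in Tbr2- nuclei with TSA against 53.5, 57.7 and 57.2 CPM with vehicle. Groups apart in the upward direction were found for 15.9% of all genes in Tbr2+ and 19.7% in Tbr2- nuclei. The log2 fold changes were 0.46 ± 0.15 in Tbr2+ (adjusted p = 0.175, edgeR) and 0.18 ± 0.15 in Tbr2- nuclei (adjusted p = 0.545). Averaged over the fractions Suz12 had 0.32 ± 0.11 (adjusted p = 0.0750, edgeR), and here DESeq2 gave an adjusted p of 0.0292. The response to TSA did not pass as different between fractions (0.28 ± 0.22, adjusted p = 0.942, edgeR).

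For the other genes the intervals set limits on a response. That of Ezh2 ran from -0.20 to 0.42 on the log2 scale in Tbr2+ and from -0.30 to 0.33 in Tbr2- nuclei, and that of Eed from -0.34 to 0.35 and from -0.33 to 0.37. For Jarid2 it ran from -0.39 to 0.30 in Tbr2+ and from -0.53 to 0.17 in Tbr2- nuclei, and for Mtf2 from -0.37 to 0.24 and from -0.32 to 0.29. Ezh1 had -0.32 ± 0.23 in Tbr2+ (adjusted p = 0.526, edgeR) and -0.13 ± 0.22 in Tbr2- nuclei (adjusted p = 0.807). Phf19 had the widest intervals, from -1.76 to 0.75 in Tbr2+ and from -1.08 to 1.41 in Tbr2- nuclei. No difference of the TSA response between fractions passed for any of the 7, or for any of the 20078 genes (0%, with 1103 or 5.49% at an unadjusted p below 0.05 in edgeR, none of the 7 among them, and 12 called by DESeq2).

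Other subunits of PRC2 were listed as 8 genes, of which 7 were in the count table. Rbbp7, a histone-binding subunit that PRC2 shares with other chromatin complexes, was the 1 of 7 that rose in Tbr2+ vehicle nuclei (242 ± 25 CPM in Tbr2+ and 151 ± 14.7 CPM in Tbr2-, SD, n = 3 each; log2 fold change 0.68 ± 0.15, adjusted p = 0.00615, edgeR). The list's median was -0.01, and 0 of 7 passed in the TSA libraries. A count of 1 in 7 is near the 9.96% of all genes that were higher in vehicle, so it is a value of Rbbp7 and not of the list.

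PRC1, the complex that ubiquitinates histone H2A and reads H3K27me3 through its Cbx subunits, had 0 of 22 genes higher and 2 lower in Tbr2+ vehicle nuclei, against 9.96% and 11.5% of all genes, with a median of 0.02. Among the lower genes was Phc1, a Polyhomeotic subunit (-0.48 ± 0.14, adjusted p = 0.0253, edgeR). In the TSA libraries 1 of 22 PRC1 genes was higher in Tbr2+ nuclei and 1 lower, against 4.19% and 5.13% of all genes. The higher gene was Cbx2, a chromodomain subunit (1.36 ± 0.31, adjusted p = 0.0153, edgeR). Counts so near these shares are values of single genes and not of the list. With TSA, averaged over the fractions, 2 of 22 PRC1 genes rose and 3 fell, against 10.8% of all genes that passed in either direction. Bmi1, the Polycomb ring-finger subunit, rose (0.57 ± 0.13, adjusted p = 0.0177, edgeR), and Kdm2b, which binds unmethylated CpG and recruits a variant PRC1, fell (-0.74 ± 0.13, adjusted p = 0.00821). Yaf2 rose (0.71 ± 0.19) and Scmh1 fell (-0.60 ± 0.14).

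Of the enzymes that undo Polycomb marks and their cofactors, 2 of 7 were higher and none was lower in Tbr2+ vehicle nuclei. Over all genes 9.96% were higher and 11.5% lower, and the median of the list was 0.43. Kdm6a, an H3K27 demethylase, stood 0.58 ± 0.14 higher on the log2 scale (adjusted p = 0.0117, edgeR) and Asxl2, a cofactor of the H2A deubiquitinase Bap1, 0.59 ± 0.17 (adjusted p = 0.0223). The list includes Uty, the Y-linked relative of Kdm6a, which had no count in library 3 of Tbr2+ with vehicle or library 3 of Tbr2- with vehicle and 11.8 to 120 CPM in the other 8 libraries, so that its log2 fold change of 1.06 ± 1.93 says little. In the TSA libraries 0 of the 7 enzymes and cofactors passed between the fractions, with a median of 0.47. The H3K27 acetyltransferases Crebbp and Ep300 did not pass in any of the 6 comparisons.

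E2F words stand at the Ezh2, Suz12 and Phf19 starts, and of these genes Ezh2 passed in vehicle while Suz12 and Phf19 did not. Eed and Jarid2 passed and had no E2F word in their promoters. A part of E2F factors in these differences was not tested. E2F factors and pocket proteins had 6 of 13 genes higher and none lower in Tbr2+ vehicle nuclei, against 9.96% and 11.5% of all genes. The median of this list was 0.48. Rbl1, a pocket protein, had 1.22 ± 0.23 (adjusted p = 0.00213, edgeR), the dimer partner Tfdp2 0.72 ± 0.15 (adjusted p = 0.00397), E2f3 1.03 ± 0.23 (adjusted p = 0.00630) and E2f1 1.31 ± 0.30 (adjusted p = 0.00648). In the TSA libraries 4 of 13 were higher, against 4.19% of all genes, led by Tfdp2 (1.06 ± 0.18) and E2f1 (1.94 ± 0.37).

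**Figure D3:**
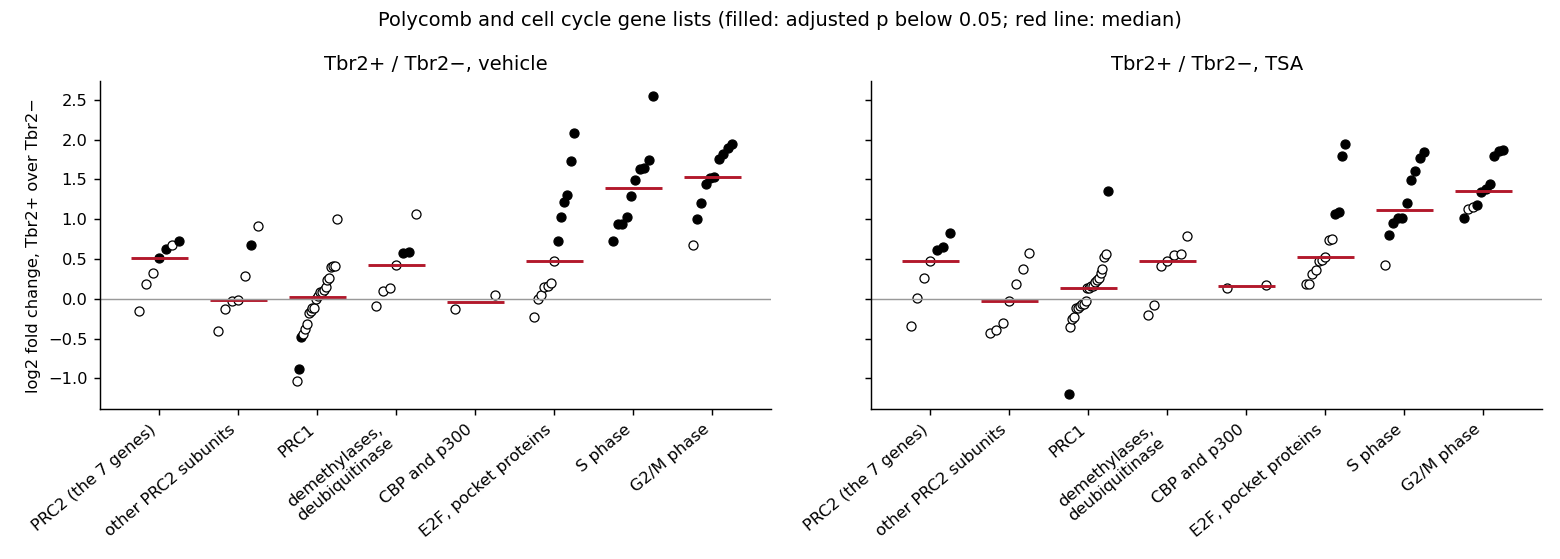
Log2 fold change of Tbr2+ over Tbr2- nuclei for each tested gene of the Polycomb and cell cycle lists, in vehicle and in TSA libraries. Points are genes, filled where the adjusted p is below 0.05, and red lines are list medians. In vehicle the medians are 0.51 for the 7 PRC2 genes, 0.02 for PRC1, 0.48 for E2F and pocket proteins and 1.39 for S-phase genes.

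Textbook targets of PRC2 had little or no RNA in any group. None of the 39 Hox genes in the count table had enough counts to be tested. Their summed RNA was 0.0424 to 0.0911 CPM in Tbr2+ with TSA, 0.0843 to 0.288 CPM in Tbr2+ with vehicle and 0 to 0.209 CPM in Tbr2- with TSA. In Tbr2- with vehicle no read was counted, where 3 counts would amount to 0.138 to 0.162 CPM in a library. Of 20 further targets 2 could be tested, and neither passed in any of the 6 comparisons. H3K9ac peaks at an end of a Hox gene were found for 0 to 2 of the 39 per library in Tbr2+ with TSA, 2 to 3 in Tbr2+ with vehicle, 3 to 5 in Tbr2- with TSA and 3 to 6 in Tbr2- with vehicle. Of the 20 further targets more had such a peak, 5 to 6 per library in Tbr2+ with TSA, 7 to 8 in Tbr2+ with vehicle, 9 to 11 in Tbr2- with TSA and 9 to 12 in Tbr2- with vehicle. The Tbr2+ TSA peak lists were also the shortest.

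Across the 10 libraries the levels of Ezh2, Eed, Jarid2 and Mtf2 followed each other, with Pearson correlations of log2 CPM of 0.88 for Ezh2 with Eed, 0.88 for Ezh2 with Jarid2, 0.92 for Eed with Mtf2 and 0.91 for Jarid2 with Mtf2. Ezh1 correlated negatively with Ezh2 (-0.50) and Suz12 (-0.62), and Phf19 with no gene beyond 0.39. The points share the split into sorted fractions, so these values describe that split together with the spread inside it. The genes most like Ezh2, of 10811 compared, were Hmg20b, a subunit of the LSD1 corepressor complex (r = 0.993), Mfng, a fringe enzyme that modifies Notch (0.984), and Tac2, the neurokinin B gene (0.982). Eed was most like Cdc27, a subunit of the anaphase-promoting complex (0.972), Ccar1 (0.971) and the deacetylase Hdac1 (0.969). Jarid2 was most like Epb41l5 (0.979), Boc (0.973) and Nsun4 (0.971), and Mtf2 most like the centriole gene Sass6 (0.970), Clvs1 (0.970) and Plcb1 (0.964). Suz12 was most like Fermt2 (0.976), Prdm8 (0.937) and Mosmo (0.934). Ezh1 was most like Cpne6, a copine of neurons (0.935), St6galnac6 (0.919) and Zmat1 (0.896), and Phf19 reached no more than 0.835 (Scaf4), 0.810 (Ino80e) and 0.795 (Nphp4).

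All 7 genes had an H3K9ac peak within 1 kb of their 5′ end in every library. A peak within 1 kb of a gene end was found in 4 of 4 libraries of Tbr2+ with TSA, 3 of 3 of Tbr2+ with vehicle, 4 of 4 of Tbr2- with TSA and 4 of 4 of Tbr2- with vehicle, for each of the 7. Such a peak stood in all 15 libraries for 71.6% of the 16897 tested genes with a position. No PRC2 gene gained or lost its peak, meaning present in all libraries of a group and in none of the other. The share of all genes that did was 0.834% for TSA in Tbr2+ nuclei, 0.0296% for TSA in Tbr2- nuclei, 0.55% between the fractions in vehicle and 1.24% between them with TSA. Fisher's exact test on presence (two-sided) gave p = 1 for each gene in each of the 4 comparisons, where the smallest p these numbers allow is 0.0286. Presence of a peak is a coarse measure that does not register a change in height.

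Of the peaks within 1 kb of a gene end, nearly all lay at the 5′ ends. Peaks inside the genes occurred as well. In Tbr2- with vehicle, Ezh1 had 3 to 10 peaks of 1347 to 2930 bases in all over the gene and 1 kb on either side. Within 1 kb of its 5′ end 734 to 782 bases were covered. For Phf19 in that group these values were 5 to 7 peaks, 2155 to 2979 bases and 1133 to 1389 bases. In Tbr2+ with TSA, Ezh1 had 1 to 3 such peaks. At the 3′ ends Ezh1 had a peak in 9 of 15 libraries, where the next gene Cntnap1 lies 391 bases away, Phf19 in 2 and Suz12 in 1. The peaks of Jarid2 reached furthest into the gene, with a position 3450 bases downstream of the 5′ end covered in all 15 libraries, followed by Ezh2 with 2100 bases. Ezh1 had the narrowest shared stretch, from 250 to 550 bases downstream. At Suz12 and Mtf2 positions on both sides of the 5′ end were covered in all 15 libraries and the 5′ end itself was not. The 250 bases printed for Ezh2 were covered by a peak in part or whole in 15 of 15 libraries, by 67 to 250 bases. Those for Suz12 were covered in part in 13 libraries, by at most 97 bases, and those for Ezh1 in 7, by at most 94 bases. The 8 bases of the E2F word lay inside a peak in 15 of 15 libraries at Phf19, in 12 at Ezh2 and in 12 at Suz12. The libraries without it at Ezh2 were all Tbr2+ with TSA, where 1 of 4 had the word in a peak, against 3 of 3 of Tbr2+ with vehicle, and a gap between peaks lies at that position in the profile plot. At Suz12 2 of 4 had it in Tbr2+ with TSA and 3 of 3 in Tbr2+ with vehicle, and 3 of 4 in Tbr2- with TSA and 4 of 4 in Tbr2- with vehicle. The Tbr2+ TSA lists were the shortest, with 31823 to 40053 peaks against 61487 to 82164 peaks in Tbr2+ with vehicle. For the words no share over other promoters was taken, and the part of the shorter lists in these counts was not tested. Peak windows and shared stretches are placed by the 5′ end of the gene record. The 250 bases and the E2F words are placed by the starts of the promoter table. These lie downstream of that 5′ end for Ezh2, Phf19, Mtf2 and the second Jarid2 start. The second annotated Mtf2 start, with 2 CpG, had no peak over its 250 upstream bases in any of the 15 libraries.

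**Figure D4:**
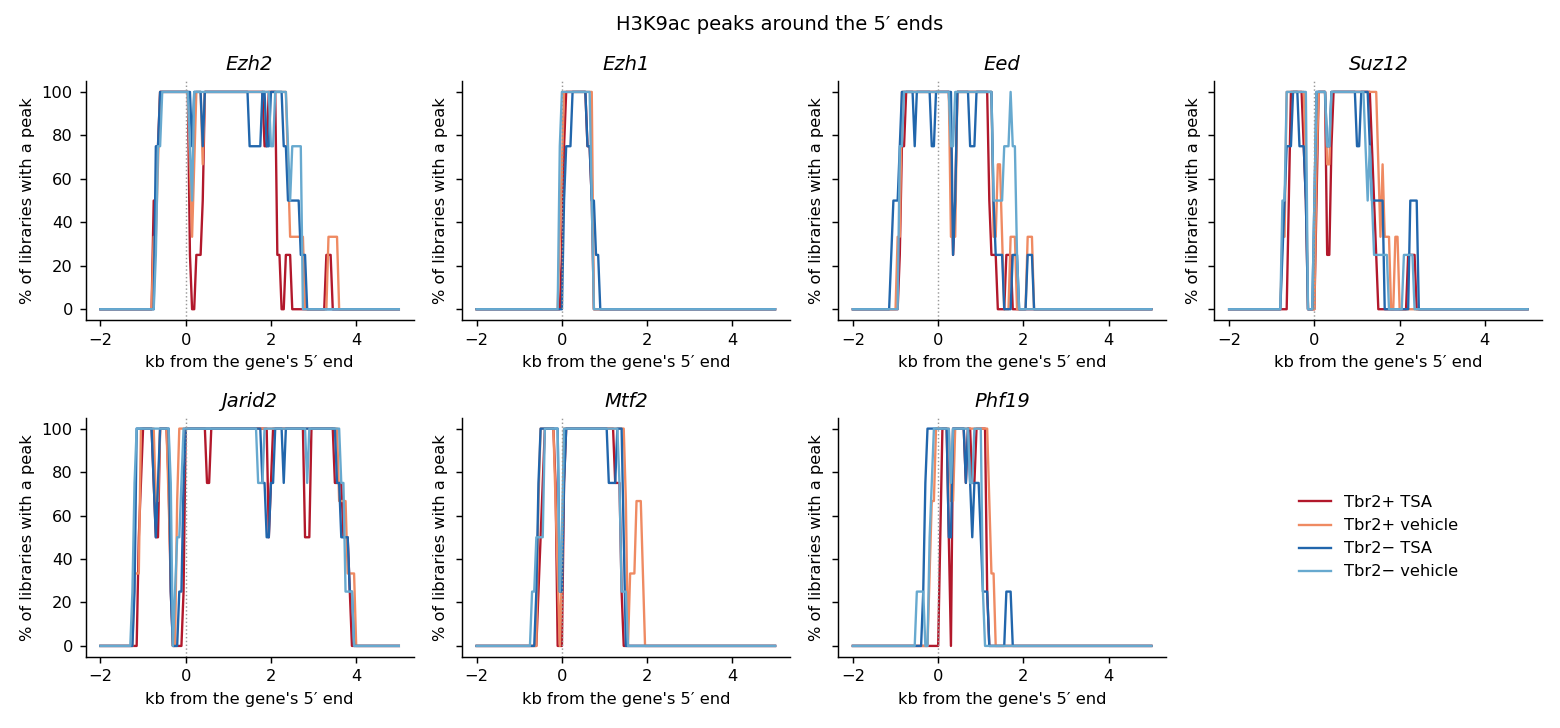
Share of the libraries of each group with an H3K9ac peak at each position from 2 kb before to 5 kb after the 5′ end of each PRC2 gene, in steps of 50 bases. Every gene has peaks in all groups near its 5′ end. The plateau of Ezh1 is the narrowest and that of Jarid2 the longest, and the Suz12 and Mtf2 plateaus dip at the 5′ end.

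The strength of the peaks, taken as the percentile of the authors' -log10 q among all peaks of the same library, set Ezh2 and Mtf2 at the top and Ezh1 and Phf19 at the bottom. The strongest 5′ peak of Ezh2 lay between the percentiles 93.4 and 99.9 in the 15 libraries and ranked first among the 7, ties included, in 13 of them. That of Mtf2 lay between 96.2 and 99.5, that of Jarid2 between 87.5 and 99.3, that of Eed between 77.9 and 98.1 and that of Suz12 between 70.9 and 94.8. Ezh1, between 56.2 and 86.1, and Phf19, between 46.7 and 82.0, were the lowest 2 in all 15 libraries. Of the paralogous catalytic genes, Ezh2 was thus among the first 2 of the 7 in 14 of 15 libraries. Ezh1 was among the last 2 in all 15. The 5′ end of Ezh2 lies inside the lncRNA F830010H11Rik, an end of which is 61 bases away. The peak there cannot be assigned to Ezh2 alone.

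**Figure D5:**
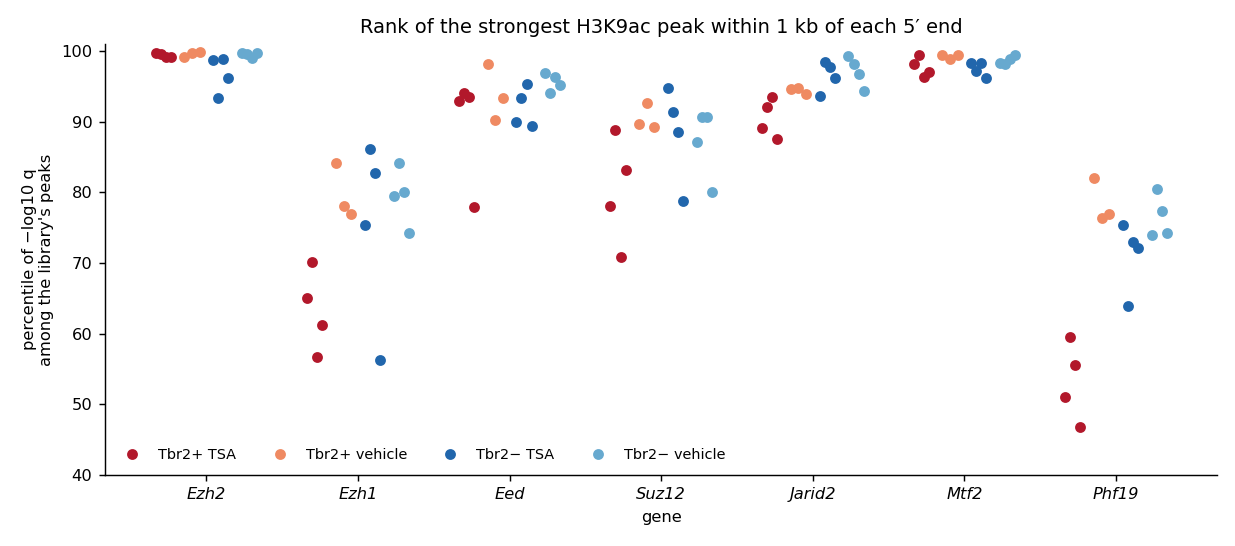
Percentile of the strongest H3K9ac peak within 1 kb of each 5′ end among all peaks of its library, ranked by the authors' -log10 q. Points are libraries in colours by group. Ezh2 and Mtf2 lie above 93 throughout and Ezh1 and Phf19 below 87, and lists of different length are not on a shared scale between groups.

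Levels of the mark between groups could not be read from these lists. The Tbr2+ TSA libraries had 31823 to 40053 peaks, against 61487 to 82164 peaks in the Tbr2+ vehicle libraries, and their input, to which MACS scales, was the smallest of the 4 with 20121265 tags. Phf19 had a percentile of 46.7 to 59.5 in Tbr2+ with TSA and 76.4 to 82.0 in Tbr2+ with vehicle, and Ezh1 56.7 to 70.2 and 76.9 to 84.1, from lists of these unequal lengths. Within 1 kb of the 5′ end, peaks covered 808 ± 52.5 bases at Phf19 in Tbr2+ with TSA and 1122 ± 140 in Tbr2+ with vehicle (SD, n = 4 and 3), and 1238 ± 89.1 and 1445 ± 58.3 bases at Suz12. These 2 of the 7 had groups apart in the direction of fewer covered bases, as did 30.6% of the 10845 genes with such a peak, and none had more (0.184% of all). No gene of the 7 had more in the other 3 comparisons either, where 0.898% of all genes did for TSA in Tbr2- nuclei, 4.65% between the fractions in vehicle and 0.513% between them with TSA. For fewer covered bases with TSA in Tbr2+ nuclei, the count was 5 without Tbr2+ vehicle library 2. It was 4 without Tbr2+ TSA library 1 or 4, or with a 2 kb window. Leaving out a library makes it easier for the groups of any gene to be apart. The shares over all genes under these settings are not given here, so these counts are no result about the 7. For TSA in Tbr2- nuclei Jarid2 alone of the 7 had fewer (1685 ± 42.2 bases with TSA and 1834 ± 91.3 with vehicle, SD, n = 4 each), against 3.4% of all genes. Between the fractions, Phf19 had fewer in the TSA libraries (808 ± 52.5 in Tbr2+ and 1189 ± 42.4 in Tbr2-, n = 4 each; 27.9% of all genes), and none of the 7 was apart in vehicle (17.2% of all genes had fewer). The count of genes with fewer bases between fractions was 3 with TSA when Tbr2+ TSA library 1 or Tbr2- TSA library 2 was left out. In vehicle it was 3 without Tbr2+ vehicle library 3 or 1 without Tbr2- vehicle library 3. The same limit holds for these counts. The part of the shorter lists and the smaller input in these values was not tested.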

How the data were processed

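RNA-seq values are raw read counts per gene as deposited, 18567111 to 26282652 counts in each of 10 libraries, from an unstranded kit per the labels. For aligner, counter and annotation, the version is not given in the sources used here. Symbols were matched through the reference table. Genes passing filterByExpr (20078) were TMM-scaled and fitted with edgeR 4.0.16 (R 4.3.3) over all 10 libraries with 1 mean per group. Standard errors were obtained as |log2 fold change| over √F, and 95% intervals use the fit's degrees of freedom. DESeq2 1.42.0 was an alternative. The scripts were checked on simulated data. With changes put into TSA against vehicle in Tbr2- nuclei, the edgeR fit recovered 49% of 100 genes at an absolute log2 fold change of 1. At 2 it recovered 92% of 100 genes.

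H3K9ac peaks were called with MACS 2.1.0.20140616 on mm10 for each library, at a q threshold of 0.1 and against 1 input per group, per the file headers and the submitters' processing notes. The deposited pileup signal, fold enrichment ratio and -log10 p-values and q-values are the authors' own, of which the -log10 q was used (within-library rank, or threshold) together with peak positions. The headers give 15174087 to 30269814 tags per library. Gene ends come from RefSeq GRCm38.p6, and a peak counts with any overlap of the 1 kb window. The input samples were not analysed here. For RNA, the extraction protocol names TRIZOL and tissue whereas the series text names sorted nuclei, and which applies cannot be told apart.

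The genes, gene lists, alternatives and named genes (the 7 genes and Eomes, up to 4 passing genes of each list with the smallest adjusted p, and the 3 most correlated genes with a mean of at least 5 CPM) were chosen with earlier results of these data known. The motifs, the covered bases at 5′ ends and the Ezh2 to Ezh1 ratio were added after values had been seen. As an exception to the rule for named genes, the values of 1 listed gene are not reported here.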

Additional observations from a re-analysis of the deposited data

Results flagged for a closer look

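Groups of 4 H3K9ac libraries were searched for a library far from the other 3, over 42 sets of values of the 7 genes, of which chance alone would single out about 1 in 20. In 5 sets a library stood apart. The strongest 5′ peak of Eed had a percentile of 77.9 in library 4 of Tbr2+ with TSA, where the other 3 lay between 92.9 and 94.1. That of Ezh2 had a percentile of 99.0 in library 3 of Tbr2- with vehicle, where the others lay between 99.6 and 99.7. Peaks covered 1761 bases within 1 kb of the 5′ end of Eed in library 3 of Tbr2- with vehicle, where the others had 1923 to 1938. In library 4 of the same group they covered 1600 bases at Suz12, where the others had 1484 to 1499, and 1389 bases at Phf19, where the others had 1133 to 1164. None of these moved a peak call, since each gene had its peak in every library.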

How the results depend on the processing

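Between the fractions in vehicle 3 PRC2 genes passed, 2 to 3 when a library was left out and 4 with DESeq2. With TSA 3 passed, 0 to 2 when a library was left out, 2 without the low-count filter (Eed at an adjusted p of 0.0617), 4 with DESeq2 and 1 in a fit of the 2 groups alone (edgeR adjusted p = 0.0781 for Eed and 0.0715 for Jarid2). For TSA averaged over the fractions 0 passed and 1 with DESeq2. Counts for TSA in each fraction, for the difference of responses and for H3K9ac stayed at 0 under every alternative run. Signs turned for values that did not pass. Leaving out libraries, the log2 fold change between fractions ranged from -0.25 to 0.06 for Ezh1 in vehicle and from -0.94 to 0.59 for Phf19 with TSA. For TSA in Tbr2+ it ranged from -0.17 to 0.06 for Jarid2 and from -1.45 to 0.08 for Phf19. For TSA in Tbr2- it ranged from -0.22 to 0.08 for Ezh1, -0.04 to 0.12 for Ezh2, -0.05 to 0.07 for Eed, -0.06 to 0.07 for Mtf2 and -0.02 to 0.39 for Phf19. Over all genes, calls for TSA were 0 in Tbr2+ (364 without the filter, 1065 with DESeq2, 0 to 39 leaving out libraries) and 236 in Tbr2- (944, 2067, 0 to 677, and 401 in a fit of the 2 groups), and between fractions with TSA 1871 (3103 with DESeq2, 683 to 1203 leaving out libraries). For TSA averaged over the fractions they were 2178 (3695 with DESeq2, 245 to 2361 leaving out libraries). The difference of responses had 0 calls and 12 with DESeq2. Genes that gained or lost an H3K9ac peak numbered 141 for TSA in Tbr2+ (87 with a -log10 q of at least 5, 168 to 267 leaving out libraries), 5 for TSA in Tbr2- (11, 10 to 18, and 8 over gene bodies) and 93 between fractions in vehicle (159, 113 to 153, and 59 over gene bodies). The causes were not tested.

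Libraries with the same number deviated together only weakly (correlations of 0.10, 0.08 and 0.10 between fractions in vehicle, 0.12 and 0.12 with TSA, and -0.05 to 0.00 across treatments). With 2 libraries in each TSA group the deviations mirror each other, so the values of 0.12 are not independent. Each vehicle library correlated best with its own number in the other fraction, a hint from the data and not the design. The main fit held no pairing, and whether the numbers pair libraries across fractions is not settled. The replicate block joined the same numbers across treatments as well, so pairing within a treatment was not tested by itself. The Y-linked gene Uty had no count in vehicle library 3 of either fraction and 11.8 to 120 CPM in the other 8 libraries, a match by number, and the labels do not say whether those libraries share a source. With a replicate block, 3 PRC2 genes passed between the fractions in vehicle and 1 with TSA (edgeR adjusted p = 0.0627 for Eed and 0.0587 for Jarid2, and a log2 fold change of -0.18 for Phf19), and 0 for TSA. Over all genes the block gave 13 calls for TSA in Tbr2+ and 14 in Tbr2-.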
